A study of Mus musculus with 15 samples.

Results

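The vesicle coats and cargo receptors that carry proteins between the endoplasmic reticulum (ER) and the Golgi apparatus were examined through 33 genes, taken by symbol from a table of 23337 genes. They comprised 12 genes of the COPII coat and its assembly, 3 of the SEC22 family, 9 of the COPI coat, 2 ARF GTPases and 7 cargo receptors. All 33 were found in the table, Copg1 under its older symbol Copg, and all 33 had enough counts to be among the 11814 genes tested.

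RNA came from the hearts of Rosa-Cas9GFP mice injected on postnatal day 1 with an adeno-associated virus (AAV), a viral vehicle that delivers a gene to cells of a living animal. The control vector was AAV-GFP, and the others were AAV-ATF4-2A-GFP and AAV-DDIT3-2A-GFP, in which a 2A peptide joins the factor to GFP, and each of the 3 vectors had 5 libraries. At 4 weeks of age cardiomyocytes were isolated by Langendorff perfusion, a digestion of the heart through its own vessels, and purified by fluorescence-activated sorting. All groups, the control too, shared the Rosa-Cas9GFP background. Whether its Cas9 and GFP were expressed was not examined here. The promoter of the vectors is not given in the sources used here, and no label says whether libraries came from separate animals. Each group mixed female libraries, by their Xist level, with others, so no group came from the same animal throughout. The p-values below cover the spread among these libraries, which may in part be technical.

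Both ATF4, the main effector of the integrated stress response, and DDIT3 (CHOP), which ER stress induces, are transcription factors. New secretory and membrane proteins leave the ER in vesicles coated by COPII, and proteins that belong in the ER are brought back from the Golgi in vesicles coated by COPI. A small GTPase starts each coat, SAR1 for COPII and an ARF for COPI, and receptors in the membrane link soluble cargo to the coat. In cardiomyocytes this route supplies, among others, ion channels, receptors of the cell surface and secreted peptides.

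Total counts per library lay between 6217744 and 8317249. Atf4 was at 51.2 to 82.0 CPM (counts of a gene per 1000000 counts of its library, with TMM scaling) in the GFP libraries, 351 to 537 in the ATF4 libraries and 43.6 to 101 in the DDIT3 libraries, and Ddit3 was at 13.4 to 16.6, 21.7 to 38.4 and 663 to 1071 CPM, each highest in the group labelled for it. For the cell type markers that follow, higher and lower counts are calls in ATF4 against GFP, as defined below. Of all genes tested, 16.5% were called higher and 15.6% lower in that comparison. The 10 cardiomyocyte markers examined summed to 93690 to 105300 CPM in ATF4 and 111600 to 141700 CPM in GFP, and 5 of them were lower in ATF4. Of 12 endothelial markers, 11 were higher in ATF4 than in GFP, with sums of 1122 to 1622 against 483.5 to 973.3 CPM, and 468 to 795 CPM in DDIT3. Pericyte and smooth muscle markers were higher in 5 of the 9 tested, fibroblast markers in 1 of 11 with 1 lower, atrial markers in 1 of 7 with 2 lower, and leukocyte markers in 0 of 6, summing to no more than 23.7 CPM in any library. The 8 atrial markers summed to 188 to 532 CPM in GFP, 617 to 1168 CPM in ATF4 and 523 to 1486 CPM in DDIT3. No marker of these lists was at 0 in every library. Their part in the results below was not tested, and in these bulk samples fewer cells of a type and less RNA per cell cannot be told apart.

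Most of the transport genes did not pass the test under either vector, and a few changed under ATF4. Mcfd2, a partner of the cargo receptor LMAN1, rose 2.49-fold, the COPII coat gene Sec23b rose 1.60-fold, the GTPase gene Arf4 rose 1.32-fold and the COPI coat gene Copg1 rose 1.21-fold, whereas the KDEL receptor gene Kdelr1 fell to 0.771 of the GFP level. These 5 genes were called in ATF4 against GFP, where a call is a Benjamini-Hochberg adjusted p below 0.05 over all genes tested in edgeR's quasi-likelihood test. They are 15.2% of the 33, and 32.2% of all genes tested were called in the same comparison. Calls upward took 4 of the 33 beside 16.5% of all genes, and calls downward 1 of the 33 beside 15.6% of all genes. The median change of the 33 was 0.04 on the log2 scale and the median size of change, whatever its sign, was 0.11, while the same values over all genes tested were 0.02 and 0.32. The 5 ATF4 libraries lay wholly apart from the 5 GFP libraries in 5 of the 33 (Mcfd2, Sec23b, Arf4 and Copg1 above, Sar1a below) and in 21.4% of all genes.

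DDIT3 against GFP gave 0 calls among the 33, with 0 at an unadjusted p below 0.05, 0 with DESeq2 and 0 in the authors' deposited table. In that comparison edgeR called 0.863% of all genes, 0.525% upward and 0.339% downward, so 0 calls say little about a list of 33. DESeq2 called 223 genes there. No share over all genes is given here for the unadjusted p or the authors' table. The log2 changes of the 33 ran from -0.21 (Sec23a) to 0.38 (Kdelr3), and 21 of them were below 0. Their smallest adjusted p in edgeR's test was 0.594. Groups did not overlap in 0 of the 33 and in 2.86% of all genes. With the replicate number as a block, which the libraries of this comparison share, calls over all genes went from 102 to 322 (2.73%) and those among the 33 stayed at 0.

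The difference between the vectors was tested directly in ATF4 against DDIT3, which shares the ATF4 libraries with ATF4 against GFP. There 5 of the 33 were called beside 33.8% of all genes: Mcfd2, Sec23b, Arf4 and Copg1 were higher in ATF4, where 17.8% of all genes were, and the SAR1 gene Sar1a was lower, where 16.0% were. The same 5 had groups that did not overlap, as did 22.6% of all genes. With the replicate block this count was 8 of the 33 (24.2%), while calls over all genes went from 3997 to 5228 (44.3%). The block added Sar1b (log2 change -0.45, adjusted p = 0.0105) as lower and Arcn1 (0.20, adjusted p = 0.0174) and Tmed10 (0.22, adjusted p = 0.0230) as higher.

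**Figure D1:**
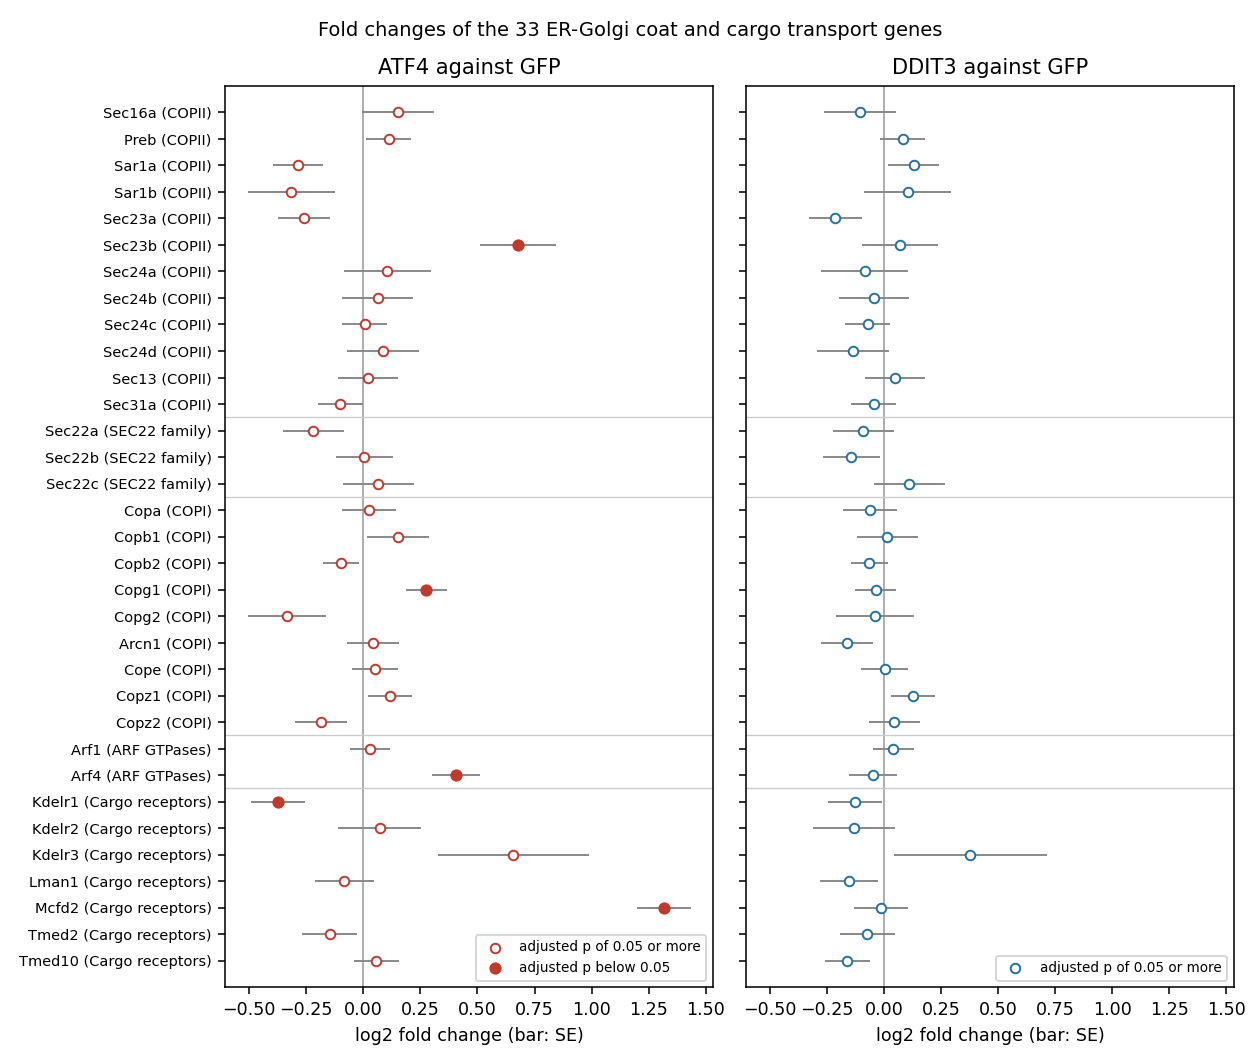
Log2 fold change of each of the 33 genes in ATF4 against GFP (left) and DDIT3 against GFP (right), with bars of 1 standard error and genes grouped by role. Filled points are the 5 genes called in ATF4 against GFP, all points of DDIT3 against GFP are open, and Mcfd2 at 1.32 stands farthest from 0.

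The cargo receptors held the gene with the largest change. MCFD2 is a small calcium-binding protein of the ER lumen that works with the lectin LMAN1 (ERGIC-53) to carry certain glycoproteins, among them blood coagulation factors, into COPII vesicles. Its gene lies on chromosome 17 (87254443 to 87265935, minus strand, mm10 in GENCODE M21). Mcfd2 was at 57.3, 78.9, 66.5, 88.4 and 78.3 CPM in GFP replicates 1 to 5. It was at 165, 162, 185, 205 and 204 CPM in the ATF4 libraries and at 69.0, 68.7, 69.2, 79.3 and 79.8 CPM in the DDIT3 libraries. Every ATF4 library was thus far above the highest GFP and DDIT3 library, and the DDIT3 values lay inside the GFP range. The means were 73.9 ± 12.1, 184 ± 20.9 and 73.2 ± 5.79 CPM (SD, n = 5). The log2 change was 1.32 ± 0.12 (SE) in ATF4 against GFP (edgeR, adjusted p = 1.05e-07), -0.01 ± 0.12 in DDIT3 against GFP (adjusted p = 0.992) and 1.33 ± 0.12 in ATF4 against DDIT3 (adjusted p = 8.48e-08). In the authors' deposited table the log2 change in ATF4 against GFP was 1.295, with an adjusted p of 1.50e-18.

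The 250 bases before the transcript start of this gene are shown because it had the largest rise (RefSeq, GRCm38.p6, chr17:87265948-87266197, minus strand, printed 5′ to 3′). Capitals mark the 5 letters CCACG, the last part of the ER stress element, on either strand (CGTGG on the other).
Mcfd2: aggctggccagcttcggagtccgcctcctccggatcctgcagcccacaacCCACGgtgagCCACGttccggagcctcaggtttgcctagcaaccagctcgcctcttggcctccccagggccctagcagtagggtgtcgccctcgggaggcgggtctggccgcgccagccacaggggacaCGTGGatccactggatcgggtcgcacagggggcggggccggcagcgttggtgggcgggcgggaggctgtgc
The stretch holds CCACG 3 times, starting 200, 190 and 71 bases before the start. Such short letters are common: 32.8% of 32851 RefSeq promoters of 300 bases (250 before to 50 after a start) and 35.5% of genes hold them. A match is a description of the letters and not of binding.

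LMAN1 is the membrane lectin to which MCFD2 binds. Lman1 was at 148, 141, 164, 152 and 189 CPM in the GFP libraries, 142, 109, 157, 165 and 176 in the ATF4 libraries and 125, 124, 152, 147 and 166 in the DDIT3 libraries. All 3 groups overlapped. Its log2 change was -0.08 ± 0.13 in ATF4 against GFP (edgeR, adjusted p = 0.655) and -0.15 ± 0.13 in DDIT3 against GFP (adjusted p = 0.789). Per base of gene length, Mcfd2 stood at 0.632 to 0.949 of the level of Lman1 in the GFP libraries, 1.89 to 2.42 in the ATF4 libraries and 0.741 to 0.903 in the DDIT3 libraries. This ratio was looked at after the values were seen and is given as a description, with no test.

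The KDEL receptors catch ER-resident proteins in the Golgi and return them in COPI vesicles. Kdelr1 (chromosome 7, 45872772 to 45883732, plus strand) was at 59.5, 57.7, 65.2, 53.3 and 66.6 CPM in the GFP libraries. In the ATF4 libraries it was at 44.1, 43.6, 56.7, 44.5 and 43.9 CPM, and in the DDIT3 libraries at 54.2, 50.7, 47.1, 54.1 and 70.8 CPM. ATF4 replicate 3 was the single ATF4 library inside the GFP range and the other 4 lay below it. The log2 change was -0.38 ± 0.12 in ATF4 against GFP (edgeR, adjusted p = 0.0213), a call lost without GFP replicate 3 (adjusted p = 0.0508) or GFP replicate 5 (0.0520). Against DDIT3 it was -0.25 ± 0.12 (adjusted p = 0.114), and without ATF4 replicate 3 -0.33 (adjusted p = 0.0372).

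Kdelr2 did not pass in any comparison (28.2 ± 2.00 CPM in GFP, 29.6 ± 8.60 in ATF4, 25.7 ± 5.45 in DDIT3). Kdelr3 was the scarcest of the 33 by total, with 430 counts over the 15 libraries. It was at 2.01, 5.08, 2.75, 3.42 and 1.42 CPM in the GFP libraries, 4.16, 3.37, 6.31, 4.54 and 4.95 in the ATF4 libraries and 2.90, 2.77, 3.98, 6.89 and 2.69 in the DDIT3 libraries. The groups overlapped, and the log2 change of 0.66 ± 0.33 in ATF4 against GFP had an adjusted p of 0.139 in edgeR's test. Without GFP replicate 2, the highest of its group, it was 0.95 with an adjusted p of 0.0394.

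Tmed2 and Tmed10, p24 family proteins that cycle between ER and Golgi and help to load and shape vesicles, did not pass in ATF4 against GFP (log2 changes -0.15 ± 0.12 and 0.06 ± 0.10). Both, like Arcn1, have near-identical pseudogenes, so their counts are uncertain to that extent. In all, 1 of the 7 cargo receptors rose and 1 fell in ATF4 against GFP, and 5 did not pass. Over all genes tested 16.5% rose and 15.6% fell, so counts this small say little about the role.

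**Figure D2:**
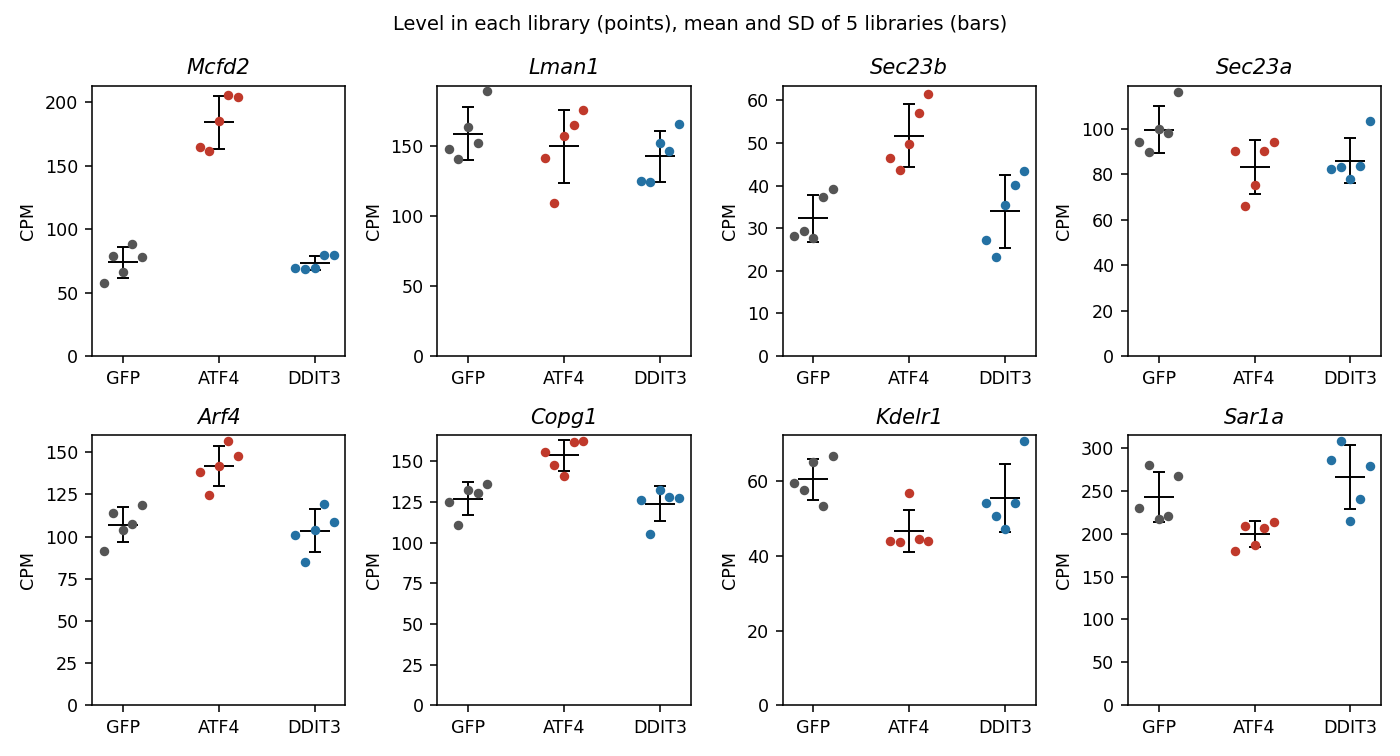
CPM of 8 genes in each library (points), with the mean and SD of the 5 libraries of a group (bars) and axes from 0. Mcfd2, Sec23b, Arf4 and Copg1 in ATF4 lie above all GFP libraries, Sar1a in ATF4 lies below them, and the groups of Lman1, Sec23a and Kdelr1 overlap.

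The COPII coat is built in steps. SEC16A marks the ER exit site, PREB (SEC12) loads SAR1 with GTP, SEC23 and SEC24 form the inner coat, in which SEC24 binds cargo and SEC23 activates the GTPase of SAR1, and SEC13 and SEC31 form the outer cage. Of these 12 genes, 1 rose, 0 fell and 11 did not pass in ATF4 against GFP, with a median log2 change of 0.04. Over all genes tested 16.5% rose and 15.6% fell.

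The gene that rose was Sec23b (chromosome 2, 144556229 to 144590749, plus strand), 1 of the 2 SEC23 paralogs. It was at 28.1, 29.3, 27.7, 37.4 and 39.3 CPM in the GFP libraries. In the ATF4 libraries it was at 46.4, 43.8, 49.7, 57.1 and 61.5 CPM, and in the DDIT3 libraries at 27.2, 23.3, 35.5, 40.2 and 43.5 CPM. The lowest ATF4 library was above the highest library of both other groups. The log2 change was 0.68 ± 0.17 in ATF4 against GFP (edgeR, adjusted p = 0.00435), 0.07 ± 0.17 in DDIT3 against GFP (adjusted p = 0.956) and 0.61 ± 0.16 in ATF4 against DDIT3 (adjusted p = 0.00827).

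Its paralog Sec23a was at 94.2, 89.8, 100, 98.2 and 116 CPM in the GFP libraries, 90.2, 66.2, 75.2, 90.2 and 94.2 in the ATF4 libraries and 82.3, 83.1, 77.8, 83.6 and 104 in the DDIT3 libraries. The groups overlapped, and the log2 change was -0.26 ± 0.11 in ATF4 against GFP (edgeR, adjusted p = 0.0890) and -0.21 ± 0.11 in DDIT3 against GFP (adjusted p = 0.594). Per base of gene length, Sec23b made up 31.2 ± 2.61% of the SEC23 pair in the GFP libraries, 46.7 ± 2.66% in the ATF4 libraries and 35.4 ± 5.14% in the DDIT3 libraries (SD, n = 5). The log2 ratio of Sec23a to Sec23b was 0.19 ± 0.15 in ATF4 and 1.14 ± 0.17 in GFP. This difference of -0.95 had an exact permutation p of 0.00794, two-sided, the smallest that 5 against 5 libraries can give, and an adjusted p of 0.0397 over the 30 tests of 10 ratios in 3 comparisons.

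SAR1 has 2 paralogs, both among the most abundant of the 33 in GFP per base of gene length. Sar1a (chromosome 10, 61680299 to 61693297, plus strand) was at 230, 281, 217, 220 and 267 CPM in the GFP libraries. In the ATF4 libraries it was at 180, 209, 186, 207 and 214 CPM, and in the DDIT3 libraries at 286, 308, 215, 241 and 279 CPM. Every ATF4 library was below every library of the other groups, by a narrow margin. Sar1a fell by 0.42 ± 0.11 on the log2 scale in ATF4 against DDIT3 (edgeR, adjusted p = 0.00763), to 0.750 of the DDIT3 level. In ATF4 against GFP its log2 change was -0.29 ± 0.11 with an adjusted p of 0.0565 in edgeR's test, while DESeq2 (adjusted p = 0.0351) and the authors' deposited table (-0.31, adjusted p = 0.0216) called it.

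Sar1b varied more, from 76.1 to 151 CPM in GFP, 72.0 to 135 in ATF4 and 106 to 160 in DDIT3, and its log2 change of -0.32 ± 0.19 in ATF4 against GFP did not pass (edgeR, adjusted p = 0.223). Sar1b held 50.5% of the pair per base of length in GFP, 49.8% in ATF4 and 50.5% in DDIT3. The log2 ratio of Sar1a to Sar1b differed by 0.04 between ATF4 and GFP (exact permutation p = 0.865, adjusted p = 1.0), although the spread of 0.39 within each group leaves a wide error on it.

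The 4 SEC24 paralogs choose different cargo. Sec24c held 59.4% of their summed level per base in GFP, Sec24d 25.2%, Sec24b 12.2% and Sec24a 3.26%, and in ATF4 the shares were 58.0%, 26.3%, 12.3% and 3.42%. Their log2 changes in ATF4 against GFP were 0.01 ± 0.10, 0.09 ± 0.16, 0.06 ± 0.15 and 0.10 ± 0.19, and none passed. The ratio of Sec24a and Sec24b to Sec24c and Sec24d differed by 0.01 on the log2 scale (exact permutation p = 0.937, adjusted p = 1.0).

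The remaining COPII genes also did not pass in ATF4 against GFP. The scaffold gene Sec16a was at 95.9 ± 25.4 CPM in GFP and 106 ± 18.3 in ATF4 (log2 change 0.15 ± 0.16), and Preb at 63.4 ± 6.98 and 68.5 ± 3.71 CPM (0.11 ± 0.10). The cage genes Sec13, at 88.3 ± 11.8 and 89.7 ± 13.6 CPM, and Sec31a, at 229 ± 19.3 and 214 ± 14.2 CPM, changed by 0.02 ± 0.13 and -0.10 ± 0.10. Sec13 also encodes a part of the nuclear pore, so its level does not belong to the coat alone.

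The 3 genes of the SEC22 family gave 0 calls, where ATF4 against GFP called 32.2% of all genes. Sec22b, a SNARE that drives fusion of vesicles between ER and Golgi, was at 45.9 ± 4.52 CPM in GFP, 46.0 ± 7.16 in ATF4 and 41.6 ± 5.83 in DDIT3. Sec22a and Sec22c, which are related to it in sequence, had log2 changes of -0.22 ± 0.13 and 0.07 ± 0.16 in ATF4 against GFP. Sec22b held 76.7% of the family per base in GFP, 78.8% in ATF4 and 75.6% in DDIT3.

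The COPI coat is a complex of 7 kinds of subunit, of which gamma and zeta each have 2 paralogs. Of its 9 genes, 1 rose, 0 fell and 8 did not pass in ATF4 against GFP, with a median log2 change of 0.04. The shares over all genes tested were 16.5% up and 15.6% down. Copg1, the gamma-1 subunit gene (chromosome 6, 87887814 to 87913595, plus strand), was at 125, 111, 132, 131 and 136 CPM in the GFP libraries. In the ATF4 libraries it was at 156, 147, 141, 162 and 163 CPM, and in the DDIT3 libraries at 126, 105, 132, 128 and 127 CPM. The lowest ATF4 library lay just above the highest GFP library. The log2 change was 0.27 ± 0.09 in ATF4 against GFP (edgeR, adjusted p = 0.0257) and 0.31 ± 0.09 in ATF4 against DDIT3 (adjusted p = 0.0126). The first of these calls was lost without ATF4 replicate 1 (adjusted p = 0.0515), 4 (0.0567) or 5 (0.0618), without GFP replicate 2 (0.0703) and with no filter on low counts (0.0746). Copg1 shares 941 exon bases (8.5% of its own) with an antisense gene, Gm26636, and the library kit does not mark strand.

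Copg2 was at 48.4 ± 9.71 CPM in GFP, 38.3 ± 5.30 in ATF4 and 47.0 ± 12.3 in DDIT3, and its log2 change of -0.33 ± 0.17 in ATF4 against GFP did not pass (edgeR, adjusted p = 0.146). Its share of the gamma pair per base was 43.4 ± 3.51% in GFP, 33.6 ± 3.88% in ATF4 and 43.1 ± 5.94% in DDIT3. The log2 ratio of Copg1 to Copg2 was 0.98 ± 0.25 in ATF4 and 0.39 ± 0.21 in GFP, a difference of 0.60 (exact permutation p = 0.00794, adjusted p = 0.0397). Copg2 overlaps the imprinted gene Mest on the opposite strand over 912 exon bases (17.8% of its own in GENCODE M21). Mest was at 16.8 CPM in GFP and 25.6 CPM in ATF4 (log2 change 0.61 ± 0.46, edgeR, adjusted p = 0.330). If reads of the shared stretch were counted, those of the 2 genes cannot be told apart there.

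The zeta subunits also differed in the balance of their paralogs. Copz1 was at 93.1 ± 8.93 CPM in GFP and 101 ± 9.19 in ATF4 (log2 change 0.12 ± 0.10), and Copz2 at 50.3 ± 7.41 and 44.2 ± 5.35 CPM (-0.19 ± 0.11). Neither gene passed alone. Copz2 held 49.0 ± 2.02% of the pair per base in GFP, 43.9 ± 1.98% in ATF4 and 47.8 ± 1.72% in DDIT3, and the log2 ratio of Copz1 to Copz2 differed by 0.30 between ATF4 and GFP (exact permutation p = 0.00794, adjusted p = 0.0397).

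The other COPI subunits did not pass. In ATF4 against GFP the log2 changes were 0.02 ± 0.12 for Copa, the alpha subunit gene and the one with the most counts of the 33, 0.15 ± 0.13 for Copb1 (beta), -0.10 ± 0.08 for Copb2 (beta prime), 0.04 ± 0.12 for Arcn1 (delta) and 0.05 ± 0.10 for Cope (epsilon). Copb2 lay between 164 and 177 CPM in GFP and between 146 and 177 CPM in ATF4.

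Summed over the 8 inner and outer coat genes, COPII stood at 756 ± 58.1 CPM in GFP, 752 ± 38.9 in ATF4 and 723 ± 68.4 in DDIT3. The 9 COPI genes summed to 1248 ± 82.7, 1279 ± 86.2 and 1213 ± 90.0 CPM. The log2 ratio of the 2 coats, per base of gene length, was -1.19 ± 0.02 in ATF4, -1.18 ± 0.05 in GFP and -1.21 ± 0.09 in DDIT3. It differed by -0.01 between ATF4 and GFP (exact permutation p = 0.873, adjusted p = 1.0), which is less than its spread between libraries.

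ARF1 and ARF4 are GTPases of the ER-Golgi interface, and ARF1 recruits COPI. Arf4 (chromosome 14, 26638074 to 26665084, plus strand) was at 91.6, 114, 104, 108 and 118 CPM in the GFP libraries, 139, 125, 142, 157 and 148 in the ATF4 libraries and 101, 84.9, 104, 120 and 109 in the DDIT3 libraries. All ATF4 libraries were above all others. Its log2 change was 0.41 ± 0.10 in ATF4 against GFP (edgeR, adjusted p = 0.00589), -0.05 ± 0.10 in DDIT3 against GFP (adjusted p = 0.952) and 0.45 ± 0.10 in ATF4 against DDIT3 (adjusted p = 0.00248). Arf4 shares 527 exon bases (14.6% of its own) with Pde12 on the opposite strand, which was at 16.4 CPM in GFP and 21.5 CPM in ATF4 (log2 change 0.39 ± 0.16, adjusted p = 0.0688), and the part of those reads in Arf4 was not tested.

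Arf1, the more abundant of the pair, was at 296 ± 7.72 CPM in GFP, 303 ± 33.3 in ATF4 and 305 ± 19.1 in DDIT3 (log2 change 0.03 ± 0.09 in ATF4 against GFP). Arf4 held 26.9 ± 1.72% of the 2 genes per base in GFP, 32.5 ± 2.02% in ATF4 and 25.7 ± 1.39% in DDIT3. The log2 ratio of Arf4 to Arf1 differed by 0.38 between ATF4 and GFP and by 0.47 between ATF4 and DDIT3 (exact permutation p = 0.00794 and adjusted p = 0.0397 for both).

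**Figure D3:**
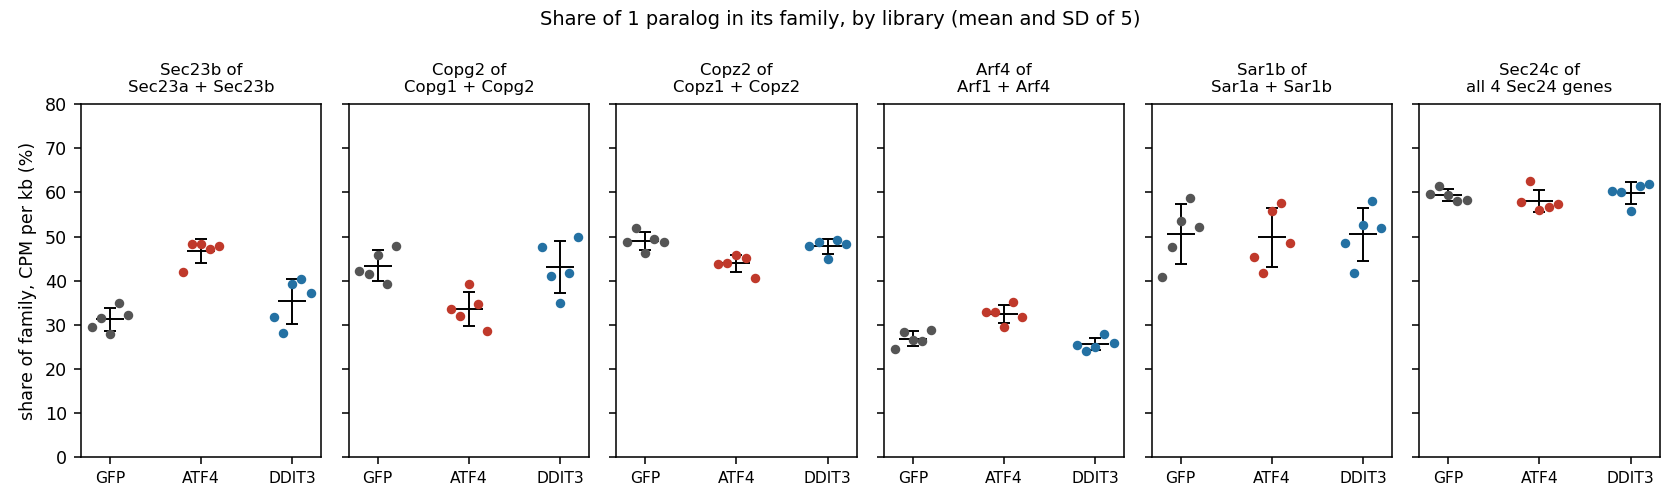
Share of 1 paralog in the summed level of its family, from CPM per kilobase of gene length, in each library (points) with the mean and SD of 5 libraries (bars). For Arf4 the sum is Arf1 and Arf4 alone, without the other ARF genes. Sec23b and Arf4 take a larger share in ATF4 than in GFP (46.7% against 31.2%, 32.5% against 26.9%), Copg2 and Copz2 a smaller one, and the shares of Sar1b and Sec24c overlap between all groups.

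Of the 10 ratios, 4 were called in ATF4 against GFP (Sec23a to Sec23b, Copg1 to Copg2, Copz1 to Copz2, Arf4 to Arf1), 2 in ATF4 against DDIT3 (Sec23a to Sec23b, with a difference of -0.69, and Arf4 to Arf1) and 0 in DDIT3 against GFP, where the smallest p was 0.151. The ratio of Kdelr3 to Kdelr1 differed by 1.13 between ATF4 and GFP with an adjusted p of 0.0529, and that of Kdelr2 to Kdelr1 by 0.40 with an adjusted p of 0.108. All called ratios were at the smallest p that the design allows, so the adjusted value passes only while 5 or more of the 30 tests reach that p together. With 1 library left out the count in ATF4 against GFP ranged from 0 to 4 and in ATF4 against DDIT3 from 0 to 3. It fell to 0 in both without any 1 of the 5 GFP libraries, or without ATF4 replicate 4 or 5. In the blocked form, which permutes signs within replicate numbers, the smallest possible p is 0.0625 and 0 could be called.

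The levels in control cardiomyocytes spanned a wide range. In CPM per kilobase of gene length, Sec22c (1.18 ± 0.112), Kdelr3 (2.08) and Sec24a (2.26 ± 0.427) were the lowest in GFP, and Sar1a (93.3 ± 11.1), Sar1b (97.4 ± 22.9), Arf1 (142 ± 3.70) and Cope (147 ± 15.7) were the highest. The order of Arf1 and Cope, and of Sar1a and Sar1b, lies within their spread. Neighbours did not overlap in 4 of the 32 steps of the order, from Sec24a (at most 2.90) to Sec22a (at least 6.21), from Sec22a to Sec24b, from Preb to Kdelr2 and from Sar1b (at most 121) to Arf1 (at least 138). Sec22c stood at percentile 14.1 of the genes tested by this measure and Cope at percentile 96.6. Mcfd2 was at 32.5 in GFP and 81.0 in ATF4, above the 42.8 of Lman1 in GFP. The median coefficient of variation of the 33 among libraries of a group was 11.0% in GFP, 13.8% in ATF4 and 12.8% in DDIT3, beside 17.1%, 19.0% and 16.7% over all genes tested.

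**Figure D4:**
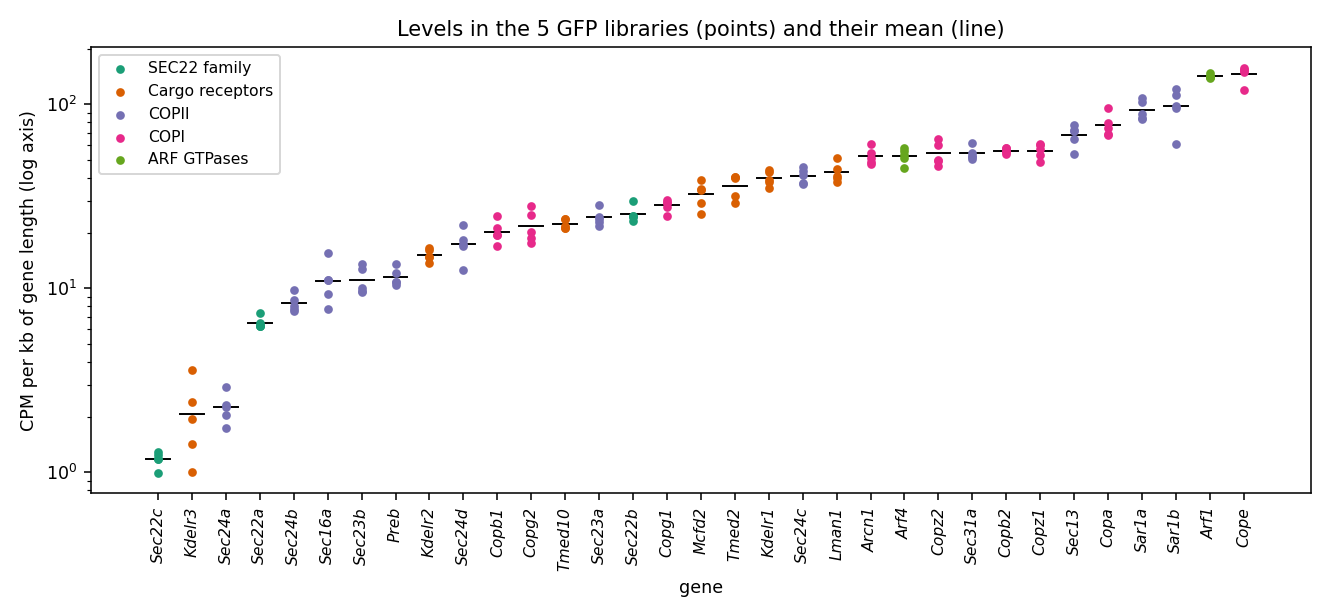
Level of the 33 genes in the 5 GFP libraries (points, coloured by role) and their mean (line), in CPM per kilobase of gene length on a log axis, ordered by mean. The range runs from 1.18 for Sec22c to 147 for Cope, and the GFP libraries overlap between 28 of the 32 pairs of neighbours in the order.

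Missing the threshold does not show that a gene was unchanged, and the standard errors bound what could have been missed. Of the 28 not called in ATF4 against GFP, 27 had log2 changes between -0.33 (Copg2) and 0.15 (Sec16a), with standard errors of 0.08 to 0.19, and Kdelr3 was the exception with a standard error of 0.33. In DDIT3 against GFP the 32 genes other than Kdelr3 lay between -0.21 and 0.13, with the same range of standard errors. At 2 standard errors on either side, the intervals of the 27 genes reached no farther from 0 than 0.70 and those of the 32 no farther than 0.49, beside the measured rise of 1.32 for Mcfd2. The interval of Kdelr3 reached 1.32 in ATF4 against GFP and 1.05 in DDIT3 against GFP, so large changes of this gene could have been missed.

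Promoter letters of the stress response pathways were looked up because the activating transcription factors of the ER stress response bind known elements. RefSeq promoters were at hand for 29 of the 33, and each motif was searched on both strands. TGACGTGG, the core to which XBP1 and ATF6 can bind, stood in 6 of the 29 (20.7%), where a gene counts if any of its promoters holds it, and counted in the same way in 0.714% of all genes with a promoter (0.676% of the 32851 promoters). The 6 genes were Sec24d, Copb1, Copb2, Arf1, Sec23a and Kdelr3, and 0 of the 5 genes called in ATF4 against GFP was among them. The sites are shown in windows of 30 bases, with the motif in capitals as it reads 5′ to 3′ on the strand of the gene, because these are the genes of the 33 that carry it (coat genes, an ARF GTPase and a receptor), and they did not pass.
Sec24d (chr3:123267459-123267488, plus strand): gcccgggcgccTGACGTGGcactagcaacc
Copb1 (chr7:114254690-114254719, minus strand): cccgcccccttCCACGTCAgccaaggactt
Copb2 (chr9:98563713-98563742, plus strand): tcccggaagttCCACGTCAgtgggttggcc
Arf1 (chr11:59228228-59228257, minus strand): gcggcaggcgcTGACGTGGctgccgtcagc
Sec23a (chr12:59011993-59012022, minus strand): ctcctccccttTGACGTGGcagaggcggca
Kdelr3 (chr15:79516367-79516396, plus strand): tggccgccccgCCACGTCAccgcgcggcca

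TGATGNAA, a form of the element to which ATF4 binds with a C/EBP partner, stood in 1 of the 29, the promoter of Kdelr1, and in 4.51% of all genes (3.97% of promoters). Kdelr1 was the gene that fell, and its site is shown for that reason.
Kdelr1 (chr7:45872680-45872709, plus strand): cctaaagacccTTCCATCAgttagtaggct
The full ER stress element, CCAAT and CCACG 9 bases apart, stood in 0 of the 29 and 0.137% of all genes, and TGACGTCA in 1 (Cope) and 2.03%. CCACG, which is also contained in TGACGTGG read on the other strand, stood in 22 of the 29 (75.9%) and 35.5% of all genes, among them 3 of the 5 called genes (Mcfd2, Arf4 and Copg1). No match says only that these letters are not in this window.

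Beyond the 33 genes, other parts of the pathway were counted from lists of known function. For comparison, ATF4 against GFP called 32.2% of all genes tested, 16.5% upward and 15.6% downward. Among 6 tested genes of the COPII cycle and exit sites, 1 rose and 1 fell in ATF4 against GFP. The gene that fell was Klhl12, an adaptor of a ubiquitin ligase that acts on SEC31 (log2 change -0.31 ± 0.10, edgeR, adjusted p = 0.0282), and the one that rose was its co-adaptor Pef1 (0.24 ± 0.09, adjusted p = 0.0494). Both calls were lost under some alternatives, with adjusted p of up to 0.0833 for Klhl12 and 0.134 for Pef1. Among 18 other cargo receptors and p24 genes, 4 rose and 3 fell. Bcap31, which exports membrane proteins from the ER, rose from 76.2 ± 5.91 to 108 ± 8.16 CPM (0.50 ± 0.09, adjusted p = 5.62e-04), and Tmed1 fell from 68.5 ± 13.8 to 37.2 ± 9.55 CPM (-0.88 ± 0.17, adjusted p = 5.96e-04).

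Among 49 tethers, Rab GTPases and SNAREs, 6 rose and 4 fell in ATF4 against GFP. These calls are 20.4% of the list, below the 32.2% of all genes tested. The 3 of lowest p all rose. Trappc6a (0.87 ± 0.13, edgeR, adjusted p = 7.47e-05) and Trappc12 (0.50 ± 0.11, adjusted p = 0.00274) are parts of the TRAPP tethering complexes, and Uso1 is the tether p115 (0.45 ± 0.11, adjusted p = 0.00633). Among 12 COPI regulators and ARF genes, 3 rose and 1 fell, 33.3% of the list and near the share over all genes. Arf6 (0.44 ± 0.11, adjusted p = 0.00630) and Arf3 (0.49 ± 0.13, adjusted p = 0.00763), ARFs of the cell surface and the late Golgi, were higher, and Arfgef1, an ARF exchange factor of the late Golgi, was lower (-0.55 ± 0.15, adjusted p = 0.0107).

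Upstream of the coats, 3 of 25 translocon and signal peptide genes rose and 0 fell. Sec61a1, the channel through which new proteins enter the ER, rose from 65.6 ± 5.52 to 122 ± 8.56 CPM (log2 change 0.90 ± 0.10, edgeR, adjusted p = 1.50e-06). Of 10 tested regulators of secretory genes 6 (60.0%) rose and 0 fell, beside the same shares over all genes. Their median log2 change was 0.54, and that of all genes tested 0.02. Ern1 (IRE1, the ER stress sensor that splices Xbp1) rose from 9.90 ± 1.48 to 40.9 ± 10.6 CPM (2.05 ± 0.17, adjusted p = 4.96e-08). Xbp1, a transcription factor of the unfolded protein response, rose from 89.9 ± 18.0 to 177 ± 11.6 CPM (0.98 ± 0.14, adjusted p = 2.67e-05), and Creb3, a related membrane-bound factor, from 32.9 ± 1.08 to 51.8 ± 2.67 CPM (0.66 ± 0.09, adjusted p = 1.44e-05). In DDIT3 against GFP all 6 of these lists gave 0 calls by edgeR's test. Only 0.863% of all genes were called there, so 0 calls say little about lists of this size. In ATF4 against DDIT3, 17.8% of all genes tested were called up and 16.0% down. There the COPII cycle list gave 0 calls, the other cargo receptors 3 up and 2 down and the tethers 5 and 3. The COPI regulators gave 2 and 0, the translocon 6 and 1, and the regulators 7 and 0.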

How the data were processed

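Whole-number read counts per gene of 23337 genes in 15 libraries, as deposited by the authors, gave every result not credited to another table. Libraries of polyA RNA were prepared with 2 kits, SMART-Seq v4 followed by Nextera XT, per the labels' protocols, and the description of GFP replicate 5 reads SMART-Seq3 in place of SMART-Seq2. The submitters' processing notes list STAR, featureCounts, DESeq and DESeq2, without versions, and the mm10 build. The deposited gene length column (other unit) served for levels per kilobase. The authors' deposited table of comparisons holds, per the file headers, log2 fold changes with standard errors, a test score and p-values. The headers do not name the kind of test score.

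The 33 genes and the pathway, marker and motif lists were chosen with earlier results of these data known. Counts were tested in R 4.3.3 with edgeR 4.0.16 (robust glmQLFit, TMM factors, filterByExpr), with vector group alone in the model, which left 12 residual degrees of freedom and a common biological variation of 19.6%, and adjusted by Benjamini-Hochberg over 11814 genes, threshold 0.05, after a test on simulated data. DESeq2 1.42.0 was an alternative. CPM use TMM factors. Paralog ratios used counts plus 0.5 per base of length and exact two-sided permutation tests over libraries, written in Python 3.11.15. No set test was run. Every one of the 33 is described, those called in a comparison by library, and up to 3 called genes of lowest p are named from each pathway list. Positions and exon overlaps are from GENCODE M21, promoters from RefSeq (GRCm38.p6). The GENCODE exons can hold more bases than the deposited length (Copg2, 5121 against 2212), so whether shared bases were counted is not known. Of the 33 genes 9 overlap another gene, among them also Sec23a (Gm17529, 8.9% of its exon bases) and Preb (Abhd1, 21.8%).

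Same-group libraries differed by 8.60 to 50.4 in chi-square per degree of freedom, so none was a copy. The female libraries, by Xist above 10 CPM, were GFP replicates 4 and 5, ATF4 replicate 2 and DDIT3 replicate 2. Same-numbered libraries deviated together from their group means in DDIT3 and GFP (r across genes 0.205 to 0.511) and in ATF4 and DDIT3 (0.135 to 0.497). A pairing by number is thus possible. The fit as reported leaves it out, and results with the replicate block are given beside it. The meaning of a number is not in the labels. In ATF4 and GFP, r was 0.078 in replicate 2 and 0.24 to 0.386 in the others. Whether the numbers pair these libraries was not settled, and the block for this comparison is given among the alternatives.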

Additional observations from a re-analysis of the deposited data

Results flagged for a closer look

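In a group of 5 libraries, a library was set apart where its gap to the nearest other, divided by the range of the group, exceeded Dixon's critical value of 0.71. This held for 8 of the 99 combinations of gene and group, and chance alone flags about 1 in 20 of them. Kdelr1 in ATF4 replicate 3 was at 56.7 CPM beside 43.6 to 44.5 CPM in the other ATF4 libraries, which is the library that made the groups of this called gene overlap. Copg1 in DDIT3 replicate 2 was low at 105 CPM (others 126 to 132). Sec24d in ATF4 replicate 2 was low at 48.3 CPM (others 72.0 to 80.2). DDIT3 replicate 5 was high in Sec23a, at 104 CPM (others 77.8 to 83.6), and in Copa, at 419 CPM (others 311 to 342). In the GFP group, Sec22a was high in replicate 4 at 29.2 CPM (others 24.8 to 25.7), Sec22b was high in replicate 5 at 53.8 CPM (others 42.2 to 44.8), and Cope was low in replicate 1 at 123 CPM (others 155 to 163).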

How the results depend on the processing

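Mcfd2, Sec23b and Arf4 stayed called in ATF4 against GFP under all 23 alternative fits, with adjusted p of at most 3.89e-06, 0.0151 and 0.0189. No called value changed direction. Members of the transport list called in ATF4 against GFP, 5 in the fit as reported, numbered 4 to 6 with 1 library left out, 6 with median-of-ratios factors and with DESeq2, 4 with no filter on low counts, 5 with sex as a term, and 6 without ATF4 replicate 2 and DDIT3 replicate 2 together (chosen after seeing the data). In DDIT3 against GFP the range was 0 to 0, and in ATF4 against DDIT3 it was 5 to 6. Over all genes, 1 library left out gave 3186 to 3854, 55 to 146 and 3380 to 4093 calls in the 3 comparisons. The low end of DDIT3 against GFP (102 as reported) came without DDIT3 replicate 1, and the counts without DDIT3 replicate 2 (62) or 3 (65) and without GFP replicate 1 (65), 3 (63) or 4 (61) were also over 1.5 times lower. DESeq2 gave 223 calls there. The replicate block gave 322 there and 8 transport genes in ATF4 against DDIT3. In ATF4 against GFP the block gave 7 transport genes (43.1% of all genes were called), adding Sar1a (adjusted p = 0.00914) and Sec23a (adjusted p = 0.0147). Sign permutation under the block gave 0 ratios in ATF4 against GFP and 0 in ATF4 against DDIT3, since its smallest p is 0.0625. The counts of called ratios, 4 and 2 as reported, ranged from 0 to 4 and from 0 to 3 with 1 library left out, and 0 to 0 in DDIT3 against GFP. Without ATF4 replicate 2 or without DDIT3 replicate 2 the count in ATF4 against DDIT3 was 1. Pef1, the weakest call named, had adjusted p of up to 0.134, and Klhl12 of up to 0.0833. Kdelr3, at 1.42 to 6.89 CPM, had the largest standard errors of the 33 in the fit as reported, and its depth and its spread between libraries were not separated.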
